A study of Arabidopsis thaliana with 6 samples.

Results

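The genes described here are the nuclear genes for photosystem I and photosystem II subunits and for the light-harvesting proteins other than *LHCB1* and *LHCB2* of the major antenna. They were chosen by name, not by any measured value, and number 34 of the 33314 genes in the tables. They fall by role into 6 genes listed as the minor antenna of photosystem II (*LHCB3* to *LHCB6*), 6 genes of the photosystem I antenna (*LHCA1* to *LHCA6*), 12 genes of photosystem I subunits, 6 genes of the oxygen-evolving complex and 4 genes of other photosystem II subunits. Counts of isoforms were summed for each gene. With at least 20 counts over the 3 libraries, 33 of the 34 genes could be compared, together with 16426 of all genes. The gene left out was *LHCB4.1*.

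The libraries are from 14 day old Arabidopsis seedlings, grown on Murashige and Skoog medium in long days and read by Nanopore direct RNA sequencing, which reads poly(A) RNA strands themselves as they pass a pore. There was 1 library for each of 3 genotypes. The *fio1-1* mutant carries a splice-site mutation in *FIONA1* (*FIO1*), which encodes an RNA adenosine methyltransferase, and *fio1-5* carries a deletion in the same gene made with CRISPR/Cas9. The labels give the ecotype Col-0 and the same age and medium for all 3 genotypes, and Col-0 with an intact *FIO1* was the wild type (WT). Each mutant is a single allele. The paper describes *fio1-1* as an allele from EMS, a chemical mutagen. Whether *fio1-1* holds other mutations, and whether *fio1-5* still holds the Cas9 cassette, is not given in the sources used here. As there was no replicate, no difference could be set against the spread between plants, and no test was made. Each interval given is an exact 95% interval that covers counting error only, and each ratio compares 2 libraries.

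The library totals were 4351543 counts in *fio1-1*, 4682799 in *fio1-5* and 4602836 in WT, and a count of 3 corresponded to 0.689, 0.641 and 0.652 CPM, the counts per 1000000 counts of the library. *FIO1* itself had 17, 30 and 25 counts in *fio1-1*, *fio1-5* and WT. Its intervals against WT spanned 0 in both mutants, so that the count of this gene did not tell the genotypes apart. Among 3 markers of mesophyll, the photosynthetic tissue of the leaf, *RBCS1A*, a Rubisco small subunit, was at 41810, 57331 and 41644 counts. In contrast, *RCA*, the Rubisco activase, had 107, 147 and 137 counts and *BCA1*, a plastid carbonic anhydrase, 17, 37 and 38. The log2 ratios of scaled counts were 0.13 in *fio1-1* and 0.48 in *fio1-5* for *RBCS1A*, and -1.01 and -0.02 for *BCA1*. Summed counts of 9 root markers were higher in both mutants than in WT, by 1.43 in *fio1-1* and by 0.85 in *fio1-5* on the log2 scale. *PYK10*, a beta-glucosidase, held 92.8%, 88.5% and 90.3% of these counts in *fio1-1*, *fio1-5* and WT, and without it the sums were higher by 0.99 and 1.1, so that the order of the mutants depended on this gene. Their part in the results was not tested. Fewer cells of a type and less RNA per cell cannot be told apart in whole seedlings.

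Photosystem II splits water and passes electrons through the cytochrome complex and plastocyanin to photosystem I, which reduces ferredoxin. The plastid genome encodes the reaction centre proteins, whereas the nucleus encodes the antenna proteins, the extrinsic proteins of the water-splitting site and many small subunits, which are imported into the chloroplast. Nuclear photosynthesis genes are known to respond to light and to signals from the plastid, and G-box elements (CACGTG) and I-box elements (GATAAG) are common in their promoters.

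Promoter sequences were read from the TAIR10.1 RefSeq genome, from 250 bases before to 50 bases after the annotated start of each gene, and both strands were searched. CACGTG was present in 13 of the 34 promoters (38.2%) and in 7.68% of all 27444 promoters. GATAAG was present in 16 of 34 (47.1%) and in 14.6% of all promoters, and CCAATC, which holds the letters of a CCAAT box, in 10 of 34 (29.4%) and in 12.3%. A match is a description of these letters and does not show that a factor binds. The windows below show 30 bases around CACGTG, in capitals, for 5 genes whose counts differed most between libraries or whose copies are compared. They lie at chr2:8736659-8736688 on the plus strand for *PSAE2*, chr1:5447987-5448016 on the minus strand for *LHCB6*, chr1:19454719-19454748 on the plus strand for *PSAH2*, chr4:11334257-11334286 on the plus strand for *PSBQ1* and chr4:2673303-2673332 on the minus strand for *PSBQ2*. The first base of the motif was 63, 124, 67, 83 and 77 bases before the annotated start in this order.
PSAE2: gatatgtgatcaCACGTGtcatatcacaag
LHCB6: taaattaatttcCACGTGtcattttatttt
PSAH2: ctttttataatcCACGTGgcatttcctaag
PSBQ1: aaataatcttgcCACGTGgctttaaggcgg
PSBQ2: gaatcaagaaacCACGTGtcaacatattag

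The 12 compared genes with CACGTG had a median log2 ratio of -0.25 in *fio1-1* and 0.12 in *fio1-5* against WT. The 21 without it had medians of -0.08 and 0.25. In *fio1-5* against *fio1-1* the medians were 0.36 with it and 0.34 without. For GATAAG they were -0.24 with and -0.18 without in *fio1-1* and 0.25 and 0.14 in *fio1-5* against WT, and for CCAATC -0.27 and -0.14, and 0.19 and 0.16. For CACGTG, the ranges of genes with and without it overlapped. *LHCB6* and *LHCA4* carry CACGTG and were among the higher genes in *fio1-5*, while *PSAO* lacks it and was among the lower. These medians are given as a description of the same libraries.

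The members spanned most of the range of transcript levels in the seedlings. On the length-scaled TPM values deposited by the authors, *PSBR* was the highest member, at 7726 TPM in *fio1-1*, 8984 in *fio1-5* and 10915 in WT. It ranked 7, 6 and 4 among all genes in TPM. By counts, which are not divided by length, *LHCB3* and *LHCA4* were above *PSBR* in both mutants, and *PSBR* was the highest member in WT. Between 17 and 20 members were at or above 1000 TPM in each library, 7 to 9 were from 100 to 1000 TPM and 7 or 8 were under 100 TPM. In each library, 17 members were among the 100 genes of highest TPM. Together the 34 genes took 7.65% of all counts in *fio1-1*, 9.79% in *fio1-5* and 8.65% in WT.

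**Figure D1:**
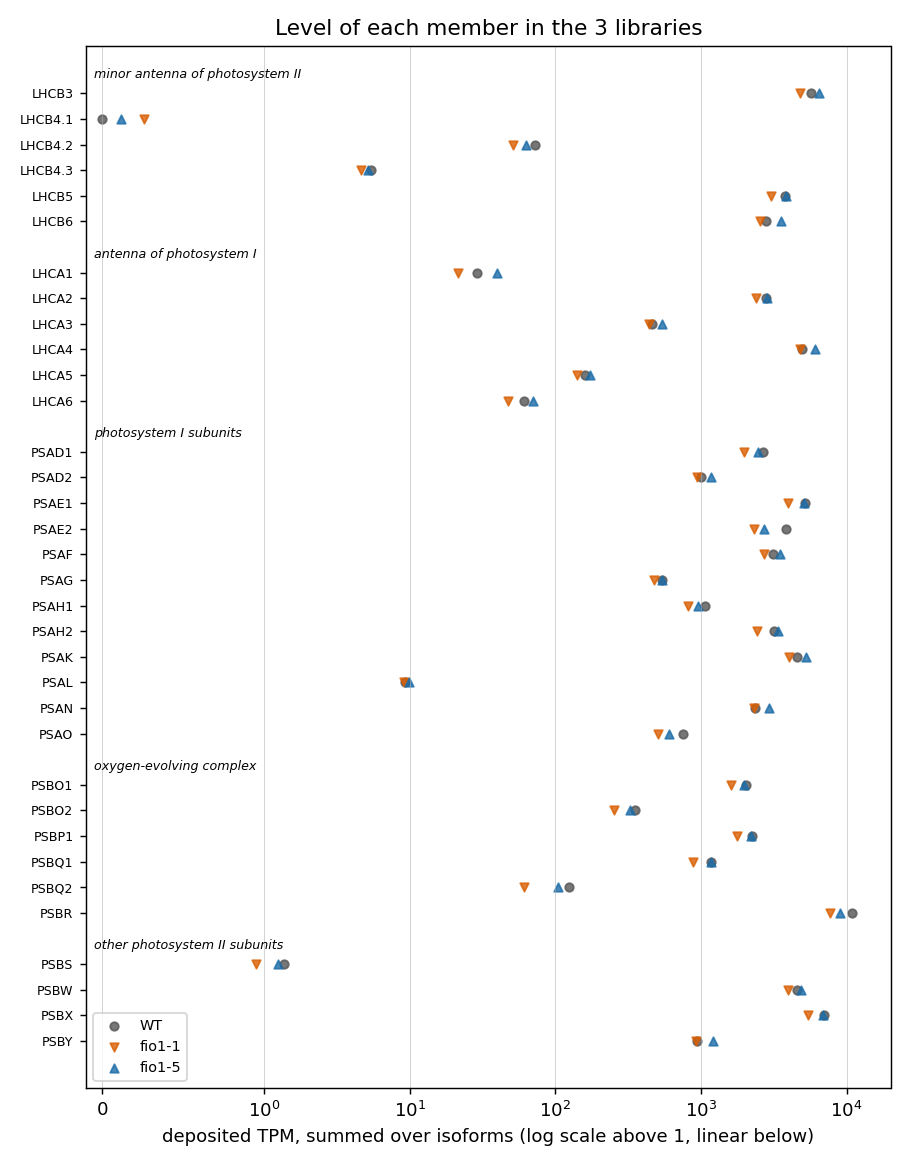
Level of each of the 34 genes in WT, *fio1-1* and *fio1-5*, as TPM summed over isoforms on an axis that is logarithmic above 1 and linear below it, with 1 point per library and genes ordered by role. *PSBR* lies furthest to the right at 10915 TPM in WT, and *LHCB4.1* lies at 0 in WT.

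The order of levels differed from gene to gene far more than from library to library. Of the proteins that form the antenna belt on photosystem I, *LHCA1* was at 21.6, 39.8 and 28.9 TPM in *fio1-1*, *fio1-5* and WT, whereas *LHCA4*, with which it pairs, was at 4817, 6081 and 4952 TPM. *PSBS*, which is needed for the fast quenching of excess light energy, was at 0.95, 1.24 and 1.36 TPM, and *PSAL*, which binds the photosystem I subunit *PSAH*, at 9.09, 9.91 and 9.24 TPM. In all, 8 members had under 2000 counts over the 3 libraries: *LHCB4.1*, *LHCB4.2*, *LHCB4.3*, *LHCA1*, *LHCA6*, *PSAL*, *PSBQ2* and *PSBS*. More than 1 mRNA is annotated for 6 of these 8 genes and for 5 of the other 26. Another annotated gene overlaps 1 of the 8 and 13 of the other 26. The tool that assigned reads to isoforms is not given in the sources used here. Its part in the low values, those of *RCA* and *BCA1* included, was not tested.

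Each mutant was compared with WT as 1 library against 1, so that a difference of genotype cannot be told apart from one between batches of seedlings. In *fio1-1*, most of the genes were slightly lower than in WT. The median log2 ratio of the 33 genes was -0.20, beside -0.01 for all 16426 genes compared. Only 7 of the 33 were higher, beside 49.2% of all genes, and 26 were lower. In *fio1-5*, most of the genes were slightly higher than in WT. The median was 0.17, beside 0.00 for all genes, with 27 of 33 higher, beside 50% of all genes, and 6 lower. Both comparisons share the WT library, and 1 library that stands apart would move both.

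These differences were small. At least 1.5-fold lower in *fio1-1* was 1 member, *PSBQ2*, beside 13.1% of all genes, and no member was 1.5-fold higher, beside 17.7%. At least 1.5-fold higher in *fio1-5* was 1 member, *LHCA1*, beside 15.4% of all genes, and no member was 1.5-fold lower, beside 12.3%. No member passed 2-fold in any comparison of scaled counts, although with TPM *PSBQ2* was at -1.02 in *fio1-1* against WT. The share of all genes that did was 9.48% higher and 4.32% lower in *fio1-1* against WT, 7.36% and 4.34% in *fio1-5* against WT, and 3.24% and 4.97% in *fio1-5* against *fio1-1*.

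Genes with few counts vary more by counting alone, so the well counted genes were also taken apart, with at least 1000 counts over the 3 libraries. They were 29 members and 2311 genes in all. In *fio1-1* against WT, 6 of the 29 were higher, beside 56.5% of all such genes. No such member was 1.5-fold higher, beside 10.3%, and *PSBQ2* was 1.5-fold lower, beside 4.28%. The counting interval lay below 0 for 21 of the 29, beside 26.5%, and above 0 for 4, beside 39%. In *fio1-5* against WT, 23 of the 29 were higher, beside 56.3%. None of the 29 passed 1.5-fold, beside 7.1% of such genes higher and 4.15% lower. Here the interval lay above 0 for 22, beside 39.5%, and below 0 for 3, beside 25.6%. The median of these members was below the median of all well counted genes by 0.25 on the log2 scale in *fio1-1*, and above it by 0.11 in *fio1-5*.

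The split into higher and lower depended on the scale for the values near 0. In the deposited TPM values the median of all compared genes was itself -0.14 in *fio1-1* and -0.15 in *fio1-5* against WT. There, 0 of the 33 members were higher in *fio1-1* and 33 lower, and 18 were higher in *fio1-5* and 15 lower. Relative to that shift, the median of the members was -0.20 in *fio1-1* and 0.16 in *fio1-5*, close to the values on counts.

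**Figure D2:**
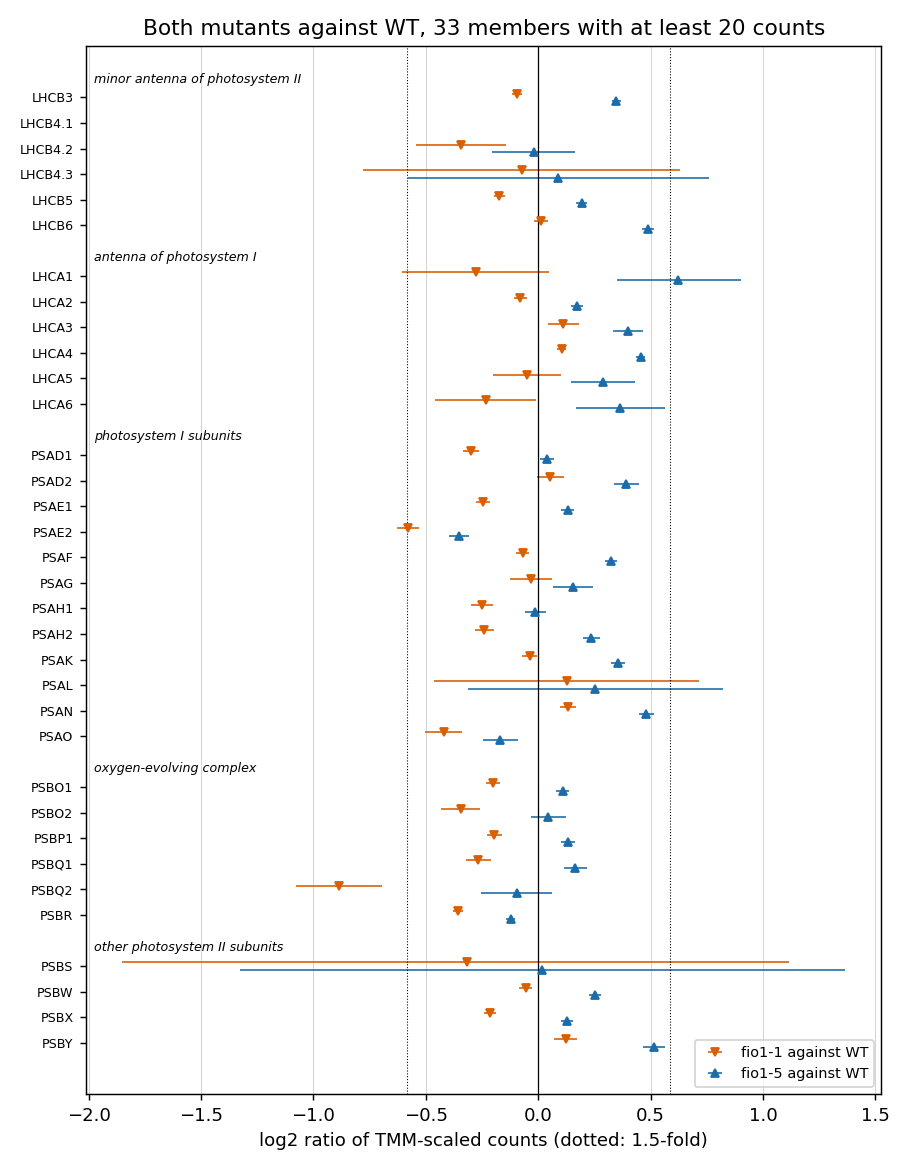
Log2 ratio of scaled counts in *fio1-1* (orange) and *fio1-5* (blue) against WT for the 33 genes with at least 20 counts, with 1 point per gene and comparison, bars for the exact 95% counting interval, and dotted lines at 1.5-fold. The *fio1-5* value lies to the right of the *fio1-1* value for each gene, and *PSBQ2* at -0.88 and *LHCA1* at 0.62 are the points beyond the dotted lines.

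The minor antenna proteins sit between the photosystem II core and the major antenna, although *LHCB3* itself belongs to a trimer of the major antenna that docks there. *LHCB3* (AT5G54270) had 32422, 47492 and 37806 counts in *fio1-1*, *fio1-5* and WT, *LHCB5* (AT4G10340), 23369, 32465 and 28772, and *LHCB6* (AT1G15820) 16586, 24893 and 17971. *LHCB5* and *LHCB6* are monomeric proteins next to the core, and all 3 genes were highest in *fio1-5*. *LHCB6* was among the 4 highest ratios of *fio1-5*, at 0.49 (0.46 to 0.52) on the log2 scale, and differed from WT by less than counting error in *fio1-1*, at 0.01 (-0.02 to 0.04). *LHCB3* was at -0.09 in *fio1-1* and 0.35 in *fio1-5*, and *LHCB5* at -0.17 and 0.19.

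*LHCB4*, another monomeric antenna protein, has 3 gene copies, and all were low. *LHCB4.2* (AT3G08940) had 353, 476 and 489 counts, *LHCB4.3* (AT2G40100) 34, 41 and 39, and *LHCB4.1* (AT5G01530) 2, 1 and 0. With 3 counts in all, *LHCB4.1* was under the minimum of 20 and was not compared. *LHCB4.2* took 90.8%, 91.9% and 92.6% of the counts of the 3 copies, with intervals that overlapped. Its log2 ratio was -0.34 (-0.55 to -0.14) in *fio1-1* and -0.02 (-0.21 to 0.17) in *fio1-5*. *LHCB4.3* was at -0.07 (-0.78 to 0.63) and 0.09 (-0.58 to 0.76), which was not distinguishable from WT at these counts. The gene AT3G08943, which overlaps *LHCB4.2* on the opposite strand, had 153, 132 and 163 counts.

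The photosystem I antenna was the group with the highest summed counts relative to WT in both mutants, at 0.04 in *fio1-1* and 0.36 in *fio1-5* on the log2 scale. Gene by gene, 2 of the 6 were higher in *fio1-1* and 4 lower, beside 49.2% of all genes higher, with a median of -0.06. In TPM, where all genes shift, the 6 genes summed to 7857, 9725 and 8451 in *fio1-1*, *fio1-5* and WT, which puts *fio1-1* below WT. *LHCA4* (AT3G47470) had 34304, 47179 and 34868 counts, *LHCA2* (AT3G61470) 18869, 24230 and 21767, and *LHCA3* (AT1G61520) 3287, 4327 and 3323. These form the belt together with *LHCA1*. *LHCA3* was among the 4 highest ratios of *fio1-1*, at 0.11 (0.04 to 0.18), and at 0.40 in *fio1-5*. *LHCA4* was at 0.10 and 0.46, whereas *LHCA2* was at -0.08 and 0.17.

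*LHCA1* (AT3G54890), at chr3:20339504-20341176 on the minus strand with 4 exons in its reference mRNA, had 139, 280 and 184 counts. It was the highest ratio of *fio1-5* against WT, at 0.62 (0.35 to 0.90), and its interval spanned 0 in *fio1-1*, at -0.28 (-0.61 to 0.05). With total counts in place of the TMM factors the value in *fio1-5* was 0.58, and with TPM 0.45, so that the 1.5-fold call did not hold there. *LHCA5* (AT1G45474) and *LHCA6* (AT1G19150), proteins of low abundance that link photosystem I to the chloroplast NADH dehydrogenase-like complex, had 671, 914 and 758 and 292, 477 and 375 counts. *LHCA5* was at -0.05 and 0.29 and *LHCA6* at -0.23 and 0.36.

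Of the photosystem I subunits, *PSAD* and *PSAE* form the stromal ridge where ferredoxin docks, and each has 2 gene copies. *PSAD1* (AT4G02770) had 11909, 16225 and 15994 counts and *PSAD2* (AT1G03130) 4497, 6131 and 4731. *PSAE1* (AT4G28750) had 14829, 20790 and 19220 counts and *PSAE2* (AT2G20260) 5637, 7126 and 9205. *PSAE2* was highest in WT, and *PSAD2*, like most members, was highest in *fio1-5*.

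*PSAE2*, at chr2:8736734-8737767 on the plus strand, was the lowest ratio of *fio1-5* and the second lowest of *fio1-1*. Its log2 ratio was -0.58 (-0.63 to -0.53) in *fio1-1* and -0.35 (-0.40 to -0.31) in *fio1-5*, whereas *PSAE1* was at -0.25 (-0.28 to -0.22) and 0.13 (0.10 to 0.16). *PSAE1* thus took 67.6% of the counts of the pair in WT (67.1 to 68.2), 72.5% in *fio1-1* (71.8 to 73.1) and, in the *fio1-5* library, 74.5% (73.96 to 74.98). With TPM the shares were 57.6% in WT, 63.2% in *fio1-1* and 65.5% in *fio1-5*, in the same order. The log2 ratio of the pair's summed counts was -0.35 in *fio1-1* and -0.01 (-0.03 to 0.02) in *fio1-5* against WT. In *fio1-5*, then, the pair as a whole did not differ from WT beyond counting error on scaled counts, while its composition did. With TPM both copies were lower in *fio1-5* than in WT, *PSAE1* at 5110 and 5205 and *PSAE2* at 2689 and 3827.

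In the *PSAD* pair the other copy gained share. *PSAD1* took 77.2% of its pair in WT (76.6 to 77.7), 72.6% in *fio1-1* (71.9 to 73.3) and, in the *fio1-5* library, 72.6% (72.0 to 73.2). *PSAD1* was at -0.30 (-0.33 to -0.26) in *fio1-1* and 0.04 (0.01 to 0.07) in *fio1-5*, and *PSAD2* at 0.05 (-0.01 to 0.11) and 0.39 (0.34 to 0.45). The share in both mutants was the same to within 0.1 points, below that of WT.

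The likeness of the copies was described from their reference coding sequences and mRNAs. The reads were not examined, so how they were assigned between copies was not tested. *PSAD1* and *PSAD2* were 88% identical over 615 aligned bases, *PSAE1* and *PSAE2* 80% over 425, *PSAH1* and *PSAH2* 87% over 438, *PSBO1* and *PSBO2* 83.8% over 996 and *PSBQ1* and *PSBQ2* 79.7% over 669. Of the 21-base words of either mRNA of a pair, at most 4.55% occurred in the other. The 4 pairs whose shares moved most are shown over the last 30 aligned coding bases without a gap, with the bases that differ between the 2 copies in capitals, 4 of 30 in *PSAD*, 3 in *PSAE*, 2 in *PSAH* and 3 in *PSBQ*. They start at coding bases 598 and 586 in *PSAD1* and *PSAD2*, 393 and 402 in *PSAE1* and *PSAE2*, 409 in both *PSAH1* and *PSAH2*, and 646 and 664 in *PSBQ1* and *PSBQ2*.
PSAD1: ttTactggCaaacaaAGttatgatttgtaa
PSAD2: ttCactggGaaacaaTCttatgatttgtaa
PSAE1: caactaTgcattggaTgaggtCgaagaagt
PSAE2: caactaCgcattggaCgaggtGgaagaagt
PSAH1: cctaagctcggtcctcgcggcaagctCtGa
PSAH2: cctaagctcggtcctcgcggcaagctTtAa
PSBQ1: ttgaacGaAgttcttgccaagctTggttaa
PSBQ2: ttgaacAaTgttcttgccaagctCggttaa

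*PSAF*, *PSAN* and *PSAK* lie at the lumenal side and at an edge of photosystem I. *PSAF* (AT1G31330), which docks plastocyanin, had 17518, 24793 and 20067 counts. *PSAN* (AT5G64040), a lumenal subunit with a part in that docking, had 12107, 16624 and 12067. *PSAK* (AT1G30380) had 14243, 20172 and 15959, and *PSAG* (AT1G55670), its relative at the other edge of the complex, 1775, 2176 and 1980. After scaling, all were highest in *fio1-5*.

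*PSAN* was the highest ratio of *fio1-1*, at 0.13 (0.10 to 0.17), and among the 4 highest of *fio1-5*, at 0.48 (0.45 to 0.51). *PSAF* was at -0.07 and 0.32 and *PSAK* at -0.04 and 0.36. *PSAG* was at -0.03 (-0.12 to 0.06) and 0.15 (0.07 to 0.24), so that only its value in *fio1-5* lay beyond counting error.

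*PSAH*, *PSAL* and *PSAO* form the side of photosystem I that receives the major antenna during state transitions. *PSAH1* (AT3G16140) had 5840, 7426 and 7591 counts, and *PSAH2* (AT1G52230) 7514, 11273 and 9689. *PSAO* (AT1G08380) had 1956, 2512 and 2861, and *PSAL* (AT4G12800) 51, 60 and 51. *PSAO* was among the 4 lowest ratios in both mutants, at -0.42 (-0.51 to -0.34) in *fio1-1* and -0.17 (-0.25 to -0.09) in *fio1-5*. *PSAL* ranked among the 4 highest of *fio1-1* at 0.13, with an interval from -0.46 to 0.72 that does not tell it from WT, and was at 0.25 (-0.31 to 0.82) in *fio1-5*.

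The *PSAH* copies had like ratios in *fio1-1*, *PSAH1* at -0.25 (-0.30 to -0.20) and *PSAH2* at -0.24 (-0.28 to -0.20). In *fio1-5* *PSAH1* was at -0.01 (-0.06 to 0.03) and *PSAH2* at 0.24 (0.20 to 0.28). The share of *PSAH1* was accordingly 43.7% in *fio1-1* (42.9 to 44.6) and 43.9% in WT (43.2 to 44.7), but 39.7% in *fio1-5* (39.0 to 40.4). This shift between copies was seen in 1 mutant, whereas those of *PSAD* and *PSAE* were seen in both. Both mutants were set against the same WT library, so these are not independent, and a WT library that stands apart would shift both.

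**Figure D3:**
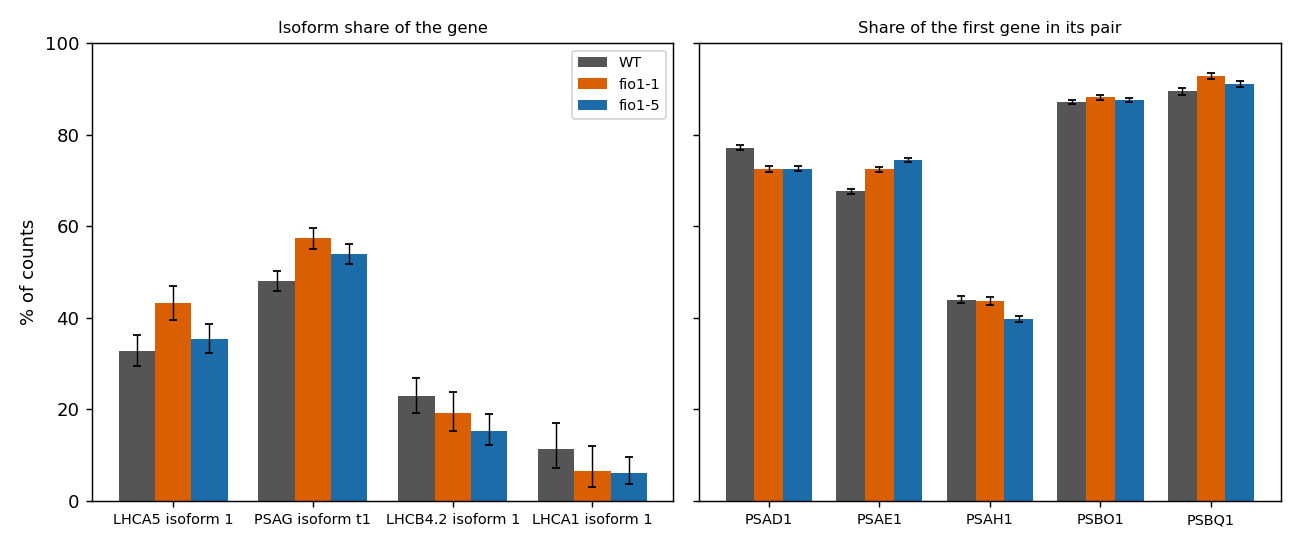
Left, share of a gene's counts held by 1 isoform of *LHCA5*, *PSAG*, *LHCB4.2* and *LHCA1*, and right, share of the first gene in the counts of its pair, in percent, for WT, *fio1-1* and *fio1-5*, with exact 95% binomial intervals as error bars. *PSAD1* stands at 77.2% in WT and at 72.6% in both mutants, and *PSAE1* at 67.6% in WT, 72.5% in *fio1-1* and 74.5% in *fio1-5*.

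The extrinsic proteins of the oxygen-evolving complex shield the manganese cluster that splits water. The genes listed for this complex were the lowest group of members in both mutants. Their summed counts were -0.29 in *fio1-1* and 0.01 in *fio1-5* against WT. All 6 were lower in *fio1-1* with an interval below 0, as were 21 of the 29 well counted members and 26.5% of all well counted genes. *PSBO1* (AT5G66570), the main form of the protein that stabilises the cluster, had 13826, 18484 and 17358 counts, and *PSBO2* (AT3G50820) 1850, 2612 and 2564. *PSBP1* (AT1G06680), which with *PSBQ* helps to retain calcium and chloride, had 13210, 17905 and 16529. *PSBR* (AT1G79040), which is needed for stable binding of *PSBP* and *PSBQ*, had 28116, 35621 and 39274.

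*PSBR*, at chr1:29735952-29737009 on the plus strand, was highest in WT. It was at -0.36 (-0.38 to -0.33) in *fio1-1* and -0.12 (-0.14 to -0.10) in *fio1-5* and so among the 4 lowest ratios in both. *PSBO1* was at -0.20 (-0.23 to -0.17) and 0.11 (0.08 to 0.14), *PSBO2* at -0.34 (-0.43 to -0.26) and 0.05 (-0.03 to 0.12). *PSBO1* held 87.1% of the pair in WT (86.7 to 87.6), 88.2% in *fio1-1* (87.7 to 88.7) and, in the *fio1-5* library, 87.6% (87.2 to 88.1).

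*PSBQ2* (AT4G05180), at chr4:2671523-2673243 on the minus strand, gave the largest difference among the members in *fio1-1*. It had 343, 639 and 692 counts, and its log2 ratio was -0.88 (-1.08 to -0.70) in *fio1-1* and -0.10 (-0.25 to 0.06) in *fio1-5*. *PSBQ1* (AT4G21280), the more highly expressed copy, had 4477, 6514 and 5883 counts and was at -0.27 (-0.32 to -0.21) and 0.17 (0.11 to 0.22). *PSBQ1* took 89.5% of the pair in WT (88.7 to 90.2), 92.9% in *fio1-1* (92.1 to 93.6) and, in the *fio1-5* library, 91.1% (90.4 to 91.7). A single annotated mRNA held 98.3%, 98.7% and 98.4% of the *PSBQ2* counts in *fio1-1*, *fio1-5* and WT.

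Of the other photosystem II subunits, *PSBX* (AT2G06520), a small protein near the quinone site, had 17497, 23922 and 22176 counts. *PSBW* (AT2G30570), which stabilises the complex of photosystem II with its antenna, had 19236, 25708 and 21845. *PSBY* (AT1G67740), a small subunit at the edge of the core, had 6148, 8699 and 6169, and *PSBS* (AT1G44575) had 8, 11 and 11. *PSBY* was among the 4 highest ratios in both mutants, at 0.12 (0.07 to 0.17) in *fio1-1* and 0.51 (0.47 to 0.56) in *fio1-5*. *PSBX* was at -0.22 and 0.13 and *PSBW* at -0.06 and 0.25. The intervals of *PSBS* were too wide to place it, -1.85 to 1.12 for *fio1-1* against WT and -1.33 to 1.37 for *fio1-5*.

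The direct comparison of both alleles does not use WT. All 33 members were higher in *fio1-5* than in *fio1-1*, beside 50.1% of all genes. The median was 0.34, beside 0.00 for all genes. The values were close to each other: the interquartile range was 0.105 for the members and 0.555 for all genes. At least 1.5-fold higher were *LHCA1*, *LHCA6* and *PSBQ2*, beside 9.62% of all genes (with TPM, *LHCA6* was at 0.58 and 2 members passed), and no member was 1.5-fold lower, beside 12.1%.

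Among well counted genes, all 29 members were higher in *fio1-5*, beside 48.7%. The interval lay above 0 for all 29, beside 27.4%, and below 0 for 0, beside 29.1%. Of these, 2 were 1.5-fold higher, *LHCA6* and *PSBQ2*, beside 2.03%, and none was 1.5-fold lower, beside 6.23%. The interquartile range was 0.083 for these 29 members and 0.360 for the 2311 genes, and their values went from 0.19 for *PSAG* to 0.79 (0.60 to 0.98) for *PSBQ2*. *LHCA1* was at 0.90 (0.60 to 1.21) and *LHCA6* at 0.60 (0.39 to 0.81). With total counts, DESeq2 size factors, TMM factors computed without photosynthesis genes, and TPM, all 33 members were again higher in *fio1-5* than in *fio1-1*, with medians from 0.32 to 0.34. Other photosynthesis genes had the same direction: 8 of 8 of the major antenna (median 0.51), 12 of 13 of electron transport and the ATP synthase (0.23), 6 of 7 other photosystem II factors (0.33), 6 of 7 thylakoid kinases, phosphatase and curvature genes (0.38) and 3 of 3 mesophyll markers (0.35). With 1 library per allele, a difference between the alleles cannot be told apart from one between these batches of seedlings.

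**Figure D4:**
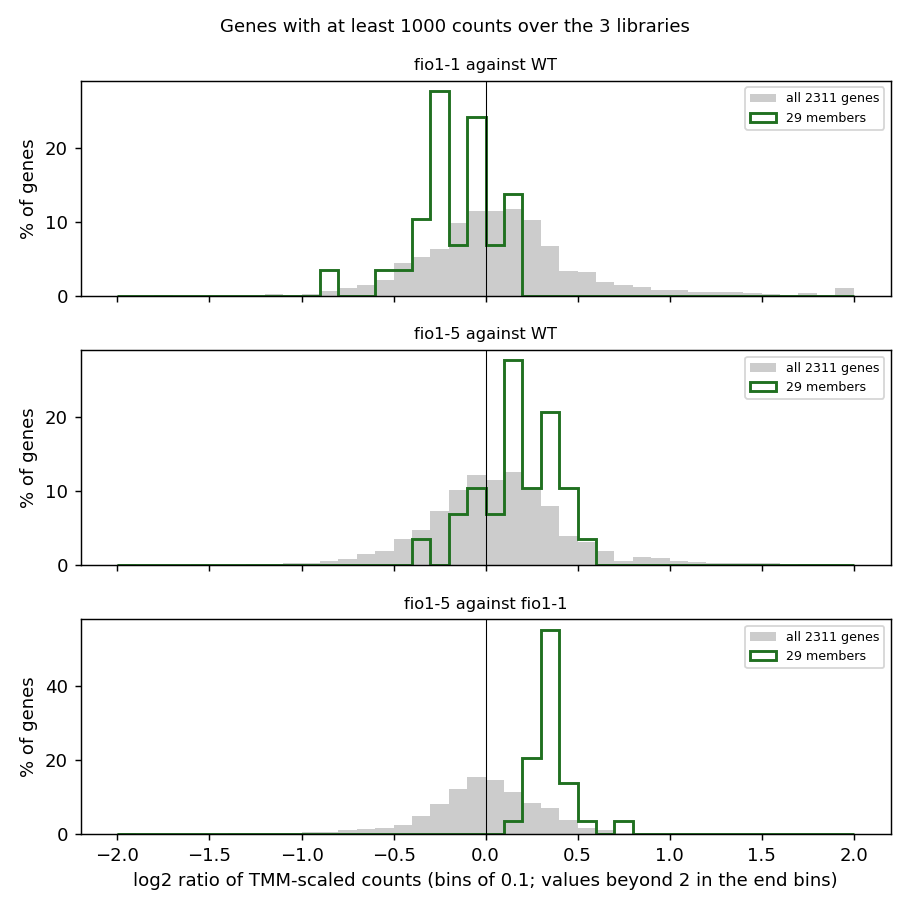
Distribution of log2 ratios over genes with at least 1000 counts, in bins of 0.1, as percent of all 2311 genes (grey) and of the 29 members among them (green line), for *fio1-1* against WT, *fio1-5* against WT and *fio1-5* against *fio1-1*. In the lowest panel all 29 members lie above 0, from 0.19 to 0.79, while all genes centre on -0.01.

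Isoform shares were computed for the members only, so no share over all genes stands beside the numbers below. The tables list 60 isoforms of the 34 genes, of which 11 carry no annotated name. The 19 genes with 1 isoform cannot differ in share. In 27 genes, these 19 included, 1 isoform held at least 95% of the counts over the libraries. Among genes with at least 100 counts in each library, the share differed by at least 10 points between libraries only in *LHCA5*. Its isoform AT1G45474.1 held 43.2% of 671 counts in *fio1-1* (39.4 to 47.1), 35.4% of 914 in *fio1-5* (32.3 to 38.6) and 32.7% of 758 in WT (29.4 to 36.2). The interval of *fio1-1* did not overlap that of the others. Just under that limit, an isoform of *PSAG* that is not annotated held 57.4% in *fio1-1* (55.1 to 59.7), 54.0% in *fio1-5* (51.8 to 56.1) and 48.0% in WT (45.8 to 50.2).

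Another gene overlaps 14 of the 34 members in the reference, 13 of them on the opposite strand, and how strand was used in counting is not given in the sources used here. Apart from AT3G08943 at *LHCB4.2*, which had 34% of the counts of that member, the overlapping genes had at most 5.42% of the counts of the member.

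Other genes of the photosynthetic membrane gave a wider spread in *fio1-1*. In *fio1-5* the thylakoid kinase, phosphatase and curvature genes did not, with an interquartile range of 0.295, beside 0.311 for the members. These lists include genes with few counts, which vary more by counting alone. Of 7 other photosystem II factors, 5 were lower in *fio1-1*, with 2 past 1.5-fold, and 4 were lower in *fio1-5*, with 1 past 1.5-fold. Their medians were -0.43 and -0.08, and they went from *LHCB7*, a rare antenna relative, at -0.87 and -0.64, to *PSBP2* at 0.20 and 0.43. *LHCB7* had 45, 57 and 90 counts in *fio1-1*, *fio1-5* and WT. *PSBP2* had 41, 52 and 39, and its intervals spanned 0 in both mutants. Of 13 compared genes of electron transport and the ATP synthase, 10 were lower in *fio1-1* and 8 higher in *fio1-5*, with medians of -0.21 and 0.09. *PETE1*, a plastocyanin, was lowest at -0.83 and -0.78, and *PGRL1A*, a protein of cyclic electron flow, highest at 1.35 and 1.43. Of 7 genes for thylakoid kinases, phosphatase and membrane curvature, 5 were lower in *fio1-1* and 5 higher in *fio1-5*, with medians of -0.16 and 0.20. *CURT1A* stood at -0.59 and -0.14 as the lowest gene in both mutants. The highest was *CURT1C* at 0.70 in *fio1-1*, with 45, 31 and 30 counts, and *STN7* at 0.39 in *fio1-5*.

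The major antenna differed from the members in spread. Of its 8 genes, *LHCB1.1* was at 1.26 and 1.82 in *fio1-1* and *fio1-5*, and *LHCB1.4* at -0.65 and -0.46. The *LHCB1* copies are near-identical and their reads may be split between them, so that single copies are uncertain. The log2 ratio of summed counts was -0.33 in *fio1-1* and -0.11 in *fio1-5* for the 5 *LHCB1* copies, and 0.63 and 1.21 for the 3 *LHCB2* copies. *GLK1* and *GLK2*, transcription factors that activate antenna and photosystem genes, had 87, 129 and 166 and 9, 46 and 17 counts. *GLK1* was at -0.80 (-1.20 to -0.42) in *fio1-1* and -0.34 (-0.69 to -0.005) in *fio1-5*. *GLK2* was at -0.76 (-2.14 to 0.46), an interval that spans 0, and 1.43 (0.62 to 2.35). The values of both were higher in *fio1-5* than in *fio1-1*. The 19 plastid genes for photosystem subunits summed to 29, 32 and 66 counts, and 2 could be compared. Of these, psbM had 6, 7 and 27 counts, most of them in WT, and was at -1.96 (-3.61 to -0.74) and -1.86 (-3.37 to -0.69). The other, psaI, had 6, 10 and 5 counts and was at 0.36 and 0.95, with intervals that spanned 0. Plastid mRNAs largely lack the poly(A) tail by which the reads are captured, and these were not set against the nuclear members.

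Of 9 root markers, 8 could be compared, and 7 of these were higher in both mutants, 7 past 1.5-fold in *fio1-1* and 6 in *fio1-5*. They went from *EXPA7*, a root hair expansin, at 1.56 and 1.74, to *IRT1*, an iron transporter, at -0.96 and -3.03. *NRT2.1*, a nitrate transporter, had 3, 1 and 0 counts. In *fio1-5* against *fio1-1*, 4 were higher and 4 lower, and the log2 ratio of their summed counts was -0.58, but 0.11 without *PYK10*. The root sum was above WT in both mutants with and without *PYK10*, while the member sum was at -0.13 (-0.14 to -0.12) in *fio1-1* and at 0.22 (0.21 to 0.23) in *fio1-5*. Among 6 floral markers, *SEP3* had 23, 29 and 3 counts and the others at most 2 in any library.

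**Figure D5:**
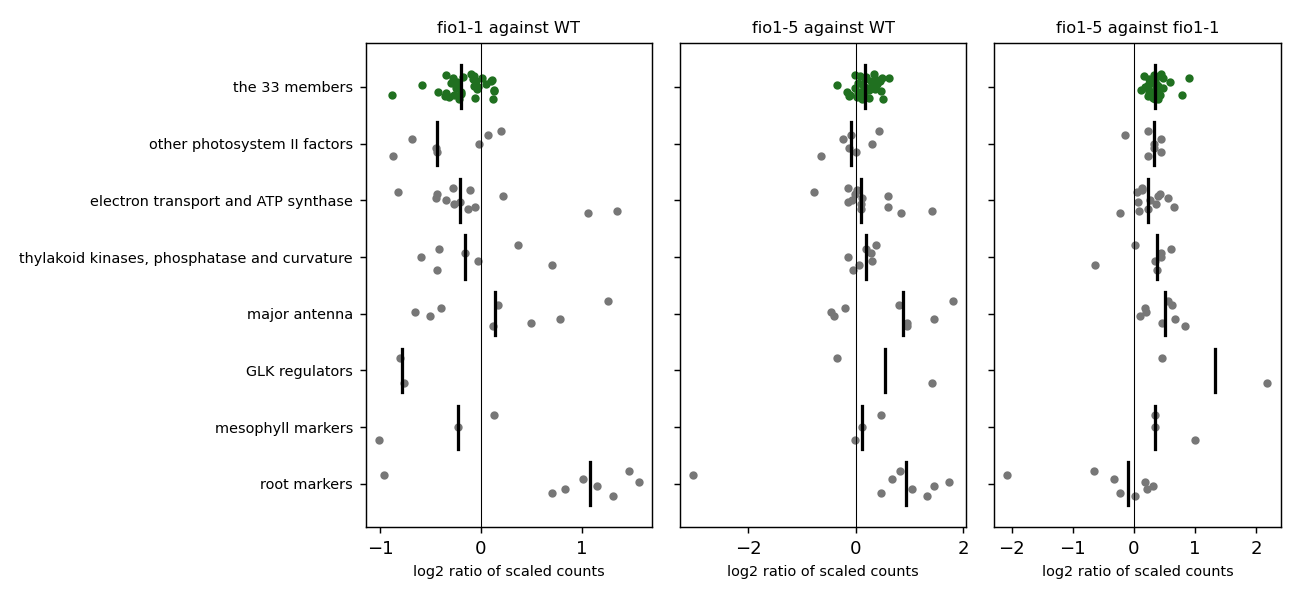
Log2 ratio of scaled counts for the 33 members (green) and for the compared genes of 7 other lists (grey), with 1 point per gene and a black bar at the median of each list, in *fio1-1* against WT, *fio1-5* against WT and *fio1-5* against *fio1-1*. The member medians are -0.20, 0.17 and 0.34, and the root markers lie mostly to the right in the first and second panels, with *EXPA7* at 1.56 and 1.74.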

How the data were processed

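RNA of 14 day old seedlings was read by Nanopore direct RNA sequencing in 1 library per genotype. Per the study's methods, reads were base called with Guppy, filtered with Nanofilt (quality of at least 7), corrected with Fclmr2 and mapped with Minimap2. The submitters' processing notes give minimap2 2.17-r941 and SAMtools 1.10. The tool, annotation and genome build behind the isoform tables, and the use of strand, are not given in the sources used here. The authors deposited an estimated count per isoform and library, which is not normalized, and a TPM value, which accounts for isoform length and sums to 1000000 in a library. Of the estimated counts above 0, 39.5%, 39.3% and 41.8% are not whole in *fio1-1*, *fio1-5* and WT. Tables of correlations between libraries that the authors also deposited were not used. No column was left without a genotype (0 columns).

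Column names do not say which platform was used. Of the 6 samples in the labels, each genotype has one by Illumina and one by Nanopore sequencing. The columns were read as Nanopore because the paper describes the series so. The column named for fio1-2 was taken as *fio1-5*, the genotype its labels give. No Illumina library was analysed here.

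The estimated counts of a gene's isoforms were added up, rounded to whole numbers and scaled with TMM factors (0.989, 0.991 and 1.02), computed by edgeR 4.0.16 under R 4.3.3. Log2 ratios had 0.5 counts added, over genes with at least 20 counts in all. Intervals of ratios are exact conditional binomial intervals without an addition, those of shares exact Clopper-Pearson intervals, all at 95% and for counting error only. With 1 library per genotype no model was fitted, and a gene was counted as past a fold of 1.5 or 2 by its value. The code for ratios and intervals was run on whole counts simulated with counting error only, the error that the intervals assume. That run does not cover errors in assigning reads or estimated counts that are not whole. Size factors for an alternative scaling came from DESeq2 1.42.0. The remaining work used scipy 1.17.1, pandas 2.3.3 and numpy 2.4.6, and figures matplotlib 3.10.9, under Python 3.11.15. Gene models, promoters and coding sequences came from the TAIR10.1 RefSeq reference, joined by locus identifier.

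All members were named with their counts. Ratios and intervals were given for the 4 highest and 4 lowest members in each mutant against WT, members past 1.5-fold and gene copies, isoforms where the share ranged by at least 10 points with at least 100 counts of the gene, and, from the other lists, the genes of highest and lowest ratio. Other values were chosen after they were seen, among them the *PSAG* isoform. The members, lists, rules and alternatives were chosen with earlier results of these data known.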

Additional observations from a re-analysis of the deposited data

Results flagged for a closer look

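For 14 of the 29 members with at least 1000 counts, beside 3.46% of all 2311 such genes, the counting interval lay below 0 in *fio1-1* and above 0 in *fio1-5*, both against the same WT library, so that the alleles stood on opposite sides of WT. The difference was not tested, since there was 1 library per genotype. The log2 ratio of *fio1-5* against *fio1-1* was 0.44 for *LHCB3*, 0.36 for *LHCB5*, 0.25 for *LHCA2* and 0.60 for *LHCA6*. It was 0.34 for *PSAD1*, 0.38 for *PSAE1*, 0.39 for *PSAF*, 0.48 for *PSAH2* and 0.39 for *PSAK*. In photosystem II it was 0.31 for *PSBO1*, 0.33 for *PSBP1*, 0.43 for *PSBQ1*, 0.31 for *PSBW* and 0.34 for *PSBX*. The side of WT on which some of these genes lay also moved with the scaling, whereas the order of the alleles did not in the alternatives run.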

How the results depend on the processing

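The median of the members kept its sign in each comparison under total counts, DESeq2 size factors, TMM factors without photosynthesis genes, 2 counts added, no filter on low counts, at least 1000 counts, the most counted isoform and TPM. With TPM it was -0.34 in *fio1-1* and 0.015 in *fio1-5* against WT, where all genes shifted as given above; the cause was not tested. The number of members past 1.5-fold is small and moved easily. In *fio1-1* against WT, 2 were lower with total counts and with TPM, 0 with a 2-fold cutoff, and 1 was higher without the filter, which brings in *LHCB4.1*. In *fio1-5* against WT, 0 were higher with total counts, TPM, at least 1000 counts (which leaves out *LHCA1*) or a 2-fold cutoff, and 2 without the filter. In *fio1-5* against *fio1-1*, 0 were higher with a 2-fold cutoff, 2 in place of 3 with TPM, and 1 was lower without the filter. The root sum without *PYK10* was chosen after seeing the data. Of 594 ratios of single members under alternatives, 88 left their counting interval and 21 changed sign, 16 of them with TPM, and none of these was past 1.5-fold. No paired analysis was possible because the columns carry no replicate number and each genotype has 1 library, so that no replicate could be left out. Counts were lowest for *LHCB4.1*, *LHCB4.3*, *PSAL* and *PSBS*, so their values carry the most counting error. Why these counts were low was not tested.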
